A study of Mus musculus with 6 samples.

Results

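The switch between epithelial and mesenchymal cell states is set by a small group of regulators, and 10 of them, of 55401 mouse genes in the deposited table, are described here across the 6 libraries of the study. They were chosen by name: Snai1, Snai2, Zeb1, Zeb2, Twist1 and Twist2, which drive the mesenchymal state, and Esrp1, Esrp2, Grhl2 and Ovol2, which hold the epithelial one. The rule that lists them uses no measured value, but they were proposed with earlier results of these data known. All 10 were detected in every library.

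Messenger RNA was sequenced from spermatogonial stem cells (SSCs, 3 libraries), the germline stem cells of the testis, and from induced neural stem cells (iNSCs, 3 libraries) made from them. SSCs came from 6-day-old male mice and grew on STO cells, a mouse fibroblast line used as feeder, in 10% serum with GDNF at 20 ng/mL, EGF at 20 ng/mL, bFGF at 10 ng/mL and LIF at 10 ng/mL. Cells labelled iNSCs had gone through 6 days of transdifferentiation on laminin: retinoic acid at 1 µM for 24 h, then a medium of N2 and B27 with 1% serum, SB431542 (10 µM), a blocker of the TGF-beta type I receptors, and 20 ng/mL of bFGF. No genetic change is named for either group, and nothing says that the libraries of a group came from separate cultures, so the spread behind each p-value is that between these libraries and may be technical. Feeder, serum, matrix, factors and inhibitor all differ together between the groups, so their parts in any difference cannot be told apart.

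SNAIL, ZEB and TWIST proteins are DNA-binding repressors that bind E-boxes in the promoters of cell junction genes, with E-cadherin (Cdh1) the textbook target, and they act in the embryo at gastrulation and when the neural crest leaves the neural tube. ESRP proteins are RNA-binding proteins that keep epithelial exons in transcripts such as Fgfr2 and Cd44, while GRHL2 activates junction genes and OVOL2 represses Zeb1 and other mesenchymal genes. ZEB proteins and the miR-200 family of microRNAs repress each other, a loop held to make the switch stable.

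Libraries held 18058551 to 20156067 counts. Transcripts of germ cells, summed over 10 markers, lay at 857.2 to 912.1 FPKM in SSCs and 15.25 to 20.41 FPKM in iNSCs as the titles have it, and all 10 fell, whereas a further label names the opposite cell type in all 6 samples. FPKM is the count scaled by exonic length and by the library's total count. Of 8 neural crest and neural progenitor markers, 6 were tested: Nes rose, while Sox2, Sox10, Nr2e1, Foxd3 and Pax6 fell. Of all genes tested, 25.7% were called higher and 27.6% lower in iNSCs. Those that fell passed the filter on low counts only through their SSC libraries, and DESeq2 called 4 of them. In SSCs Sox2 was at 9.16 to 13.22 FPKM, Sox10, Nr2e1 and Foxd3 at 0.51 to 1.76, and Pax6 at 0.05 to 0.12. Sox10 and Nr2e1 were at 0 in all iNSC libraries. So was Sox1, which was not tested and was at most 0.22 FPKM in SSCs. SSC libraries were uneven. SSCs replicate 3 held 62.17 FPKM over 12 fibroblast and feeder markers, against 458.4 and 406.2 in replicates 1 and 2, and 40.17 FPKM over 6 smooth muscle and peritubular myoid markers, against 701.0 and 597.2. The same sums in iNSCs were 148.9 to 205.3 and 343.9 to 393.6 FPKM. Over 10 Sertoli cell markers SSCs replicate 1 stood apart instead, at 346.6 FPKM, against 61.3 and 116.8 in replicates 2 and 3. These are bulk samples, in which fewer cells of a type and less RNA per cell cannot be told apart.

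Genes were called where edgeR's quasi-likelihood test gave a Benjamini-Hochberg adjusted p under 0.05 over all 17387 genes tested and the difference was at least 2-fold. All 10 regulators passed the filter on low counts, Snai2 and Twist2 only through their iNSC libraries. The tests of Snai2 and Twist2 thus depended on the group where they are high, and their calls only describe these libraries. In iNSCs 4 of them rose (Esrp2, Twist2, Snai2 and Zeb2), 2 fell (Ovol2 and Snai1), and 4 were not called (Esrp1, Zeb1, Grhl2 and Twist1). Of all genes tested, 53.3% were called, 25.7% higher and 27.6% lower in iNSCs. The groups did not overlap for 8 of the 10, against 79.3% of all genes tested, with iNSCs higher for 4 (38.8% of all genes) and lower for 4 (40.5%). Both shares of the regulators are near the background, so the number that changed says nothing about them as a group. What the data give is which members moved and which way. Their median log2 difference, iNSCs minus SSCs, was 0.19, against -0.05 for all genes. Scaling by library totals in place of TMM shifted log2 differences by a median of -0.26 and moved the share of calls that were higher from 48.2% to 39.6%, while the same 6 regulators kept their calls and Esrp1 joined them.

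**Figure D1:**
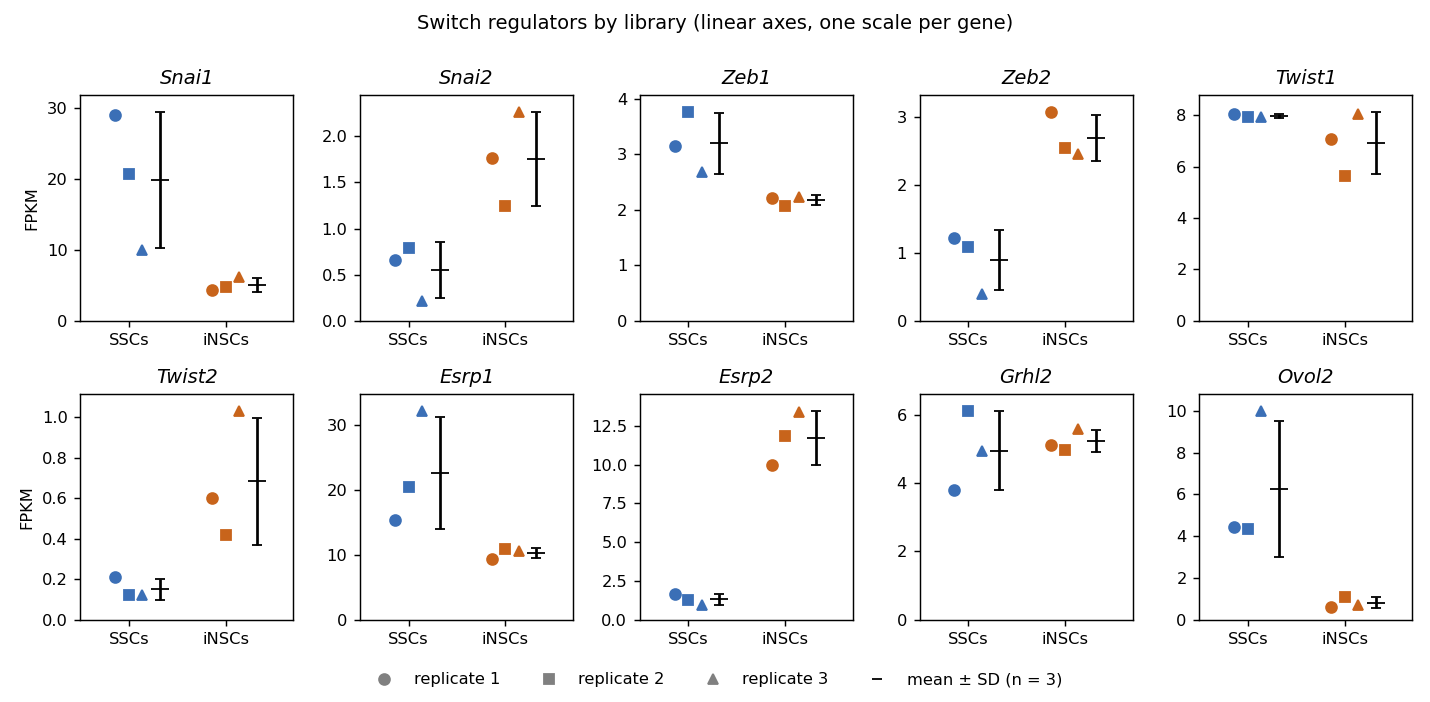
FPKM of each regulator in each library (points, shapes mark replicates) with the mean ± SD of each group of 3, on linear axes with a scale per gene. Esrp2, Zeb2, Snai2 and Twist2 sit higher in all iNSC libraries, Ovol2, Snai1, Esrp1 and Zeb1 lower, and the groups overlap for Twist1 and Grhl2.

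**Figure D2:**
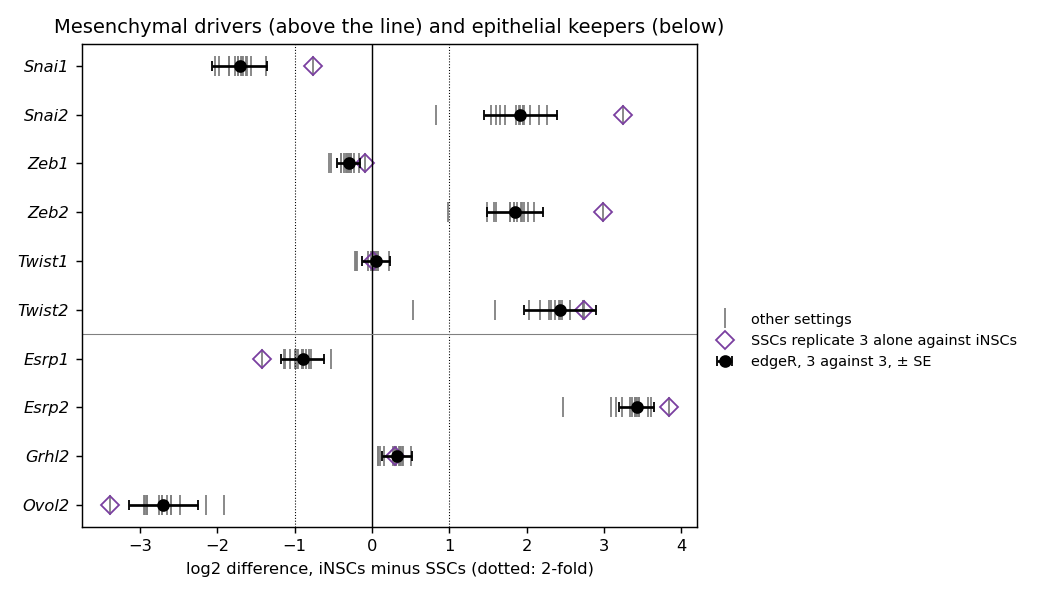
log2 difference of each regulator, iNSCs minus SSCs (black points with 1 SE from edgeR, 3 libraries against 3), with the alternative settings as ticks, SSCs replicate 3 alone as diamonds and dotted lines at 2-fold. Esrp2 stands at 3.42 and Ovol2 at -2.70, the ends of the range, and Twist1 at 0.05.

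The zinc-finger repressor SNAIL, encoded by Snai1, is the founding member of its family and represses Cdh1. Its gene (ENSMUSG00000042821, chr2:167538195-167542814, plus strand, GRCm38) was present at 29.11, 20.74 and 9.95 FPKM in SSCs and at 4.27, 4.71 and 6.12 FPKM in iNSCs. All SSC libraries were above all iNSC libraries, although SSCs replicate 3 lay closer to the iNSC values than to the other SSC libraries. Snai1 fell by 1.71 on the log2 scale (SE 0.36, edgeR's quasi-likelihood test, adjusted p = 0.00342). With SSCs replicate 3 as the lone SSC library, chosen after seeing the marker sums and assumed to vary like the iNSC libraries, the log2 difference was -0.77, under 2-fold. SNAIL is known to bind E-boxes in its own promoter. The 250 bases before the start of Snai1 in RefSeq (GRCm38.p6, chr2:167537945-167538194, plus strand) hold 1 such 6-letter box, CAGGTG read on either strand, shown in capitals because it is the letters that SNAIL and ZEB proteins read.
Snai1 promoter: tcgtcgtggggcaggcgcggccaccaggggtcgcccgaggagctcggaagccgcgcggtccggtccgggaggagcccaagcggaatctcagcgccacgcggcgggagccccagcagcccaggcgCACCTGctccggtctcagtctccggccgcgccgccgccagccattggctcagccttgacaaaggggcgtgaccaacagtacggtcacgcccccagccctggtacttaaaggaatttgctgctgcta

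SLUG, the product of Snai2 (ENSMUSG00000022676, chr16:14705852-14709385, plus strand), is the family member best known from the neural crest. Snai2 was low throughout, at 0.66, 0.79 and 0.21 FPKM in SSCs and 1.77, 1.24 and 2.26 FPKM in iNSCs. All iNSC libraries were above all SSC libraries, and the lowest value, in SSCs replicate 3, rested on 8 counts. Snai2 rose (log2 difference 1.92, SE 0.47, edgeR adjusted p = 0.00744). On its SSC libraries alone Snai2 would not have passed the count filter, so this p-value is descriptive. The pair therefore moved in opposite directions. Snai2 made up 2.65% ± 0.885 (SD, n = 3) of the FPKM of Snai1 and Snai2 together in SSCs and 25.7% ± 4.37 (SD, n = 3) in iNSCs, and the summed level was 20.5 ± 9.85 against 6.79 ± 1.38 FPKM. The third family member, Snai3, fell (log2 difference -1.19, edgeR adjusted p = 0.001155).

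ZEB1 and ZEB2 are large zinc-finger and homeodomain repressors of the same epithelial promoters. Zeb1 (ENSMUSG00000024238, chromosome 18, plus strand) stood at 3.15, 3.77 and 2.68 FPKM in SSCs and 2.21, 2.07 and 2.24 FPKM in iNSCs. Every SSC library was above every iNSC library by a small margin, and the difference was not called (log2 difference -0.30, SE 0.15, edgeR adjusted p = 0.1025).

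Zeb2 (ENSMUSG00000026872, chr2:44983632-45117395, minus strand), mutated in human Mowat-Wilson syndrome, stood at 1.21, 1.09 and 0.39 FPKM in SSCs and 3.07, 2.54 and 2.45 FPKM in iNSCs. Here all iNSC libraries were higher, and SSCs replicate 3 was the lowest. Zeb2 rose (log2 difference 1.85, SE 0.36, edgeR adjusted p = 0.00241). Zeb2os, which overlaps Zeb2 on the opposite strand, had 7 counts in the SSC libraries together and 71 in iNSCs, and the strand setting of the authors' counting is not given, so reads of such antisense pairs could not be told apart. Zeb2 made up 20.96% ± 7.63 of the summed FPKM of the ZEB pair in SSCs and 55.2% ± 2.95 in iNSCs (SD, n = 3), while the sum itself was 4.10 ± 0.924 and 4.86 ± 0.366 FPKM. These sums overlapped between the groups, with a different member in the lead. Per length of the longest coding transcript, the shares of Zeb2 were 24.9% and 60.6%, and the sums no longer overlapped, at 7.65 ± 1.81 and 9.79 ± 0.802 (SD, n = 3). Summed counts did not overlap either (664 to 1101 in SSCs, 1416 to 1590 in iNSCs), so whether the ZEB sum differs depends on the length used.

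The microRNAs of the miR-200 family lie on chromosomes 4 (miR-200a, miR-200b and miR-429) and 6 (miR-141 and miR-200c) and carry either of 2 seeds. The mature strands from RefSeq (GRCm38.p6) are shown with the seed, bases 2 to 8, in capitals, because these letters pair with the ZEB transcripts.
mmu-miR-141-3p: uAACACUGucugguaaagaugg
mmu-miR-200a-3p: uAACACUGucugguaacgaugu
mmu-miR-200b-3p: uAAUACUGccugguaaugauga
mmu-miR-200c-3p: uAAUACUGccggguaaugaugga
mmu-miR-429-3p: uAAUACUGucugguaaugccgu

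Matches to the seeds were counted on the transcript's strand. The 3′ UTR of transcript Zeb2-212 (4941 bases, GENCODE M21) holds 5 copies of CAGTATT and 4 of CAGTGTT, and that of Zeb1-201 (2401 bases) also holds 5 and 4. Among the 820 3′ UTRs at least as long as that of Zeb2, its own included, 0.122% held as many CAGTATT in the same length, which is Zeb2 alone, and 1.1% as many CAGTGTT. Among the 4092 at least as long as that of Zeb1, its own included, the shares were 0.0489% and 0.122%. A few Zeb2 sites are shown with the seed match in capitals (GRCm38, minus strand, chr2:44988173-44988195, chr2:44988108-44988130 and chr2:44987746-44987768), the first pair of which share most of the bases before the match.
Zeb2 3′ UTR position 393: cgcactaccatacatCAGTATTt
Zeb2 3′ UTR position 458: cgcactacagtgcatCAGTATTa
Zeb2 3′ UTR position 820: ttgaagcacccgtgtCAGTATTa

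The matches are a property of the sequence and not a measured repression. Hairpin genes of the 5 microRNAs had 3 counts in all, for Mir200a in iNSCs. Libraries of polyadenylated RNA do not measure mature microRNAs, so the other arm of the loop was not read here.

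TWIST1 and TWIST2 are basic helix-loop-helix factors of mesoderm and neural crest. Twist1 (ENSMUSG00000035799, chr12:33957671-33959829, plus strand) was at 8.05, 7.93 and 7.94 FPKM in SSCs and 7.07, 5.63 and 8.05 FPKM in iNSCs. The groups overlapped, and the SSC libraries were tighter for this gene than for any other of the 10. No change was called (log2 difference 0.05, SE 0.18, edgeR adjusted p = 0.822), and the sign turned with the scaling, to -0.21 by library totals. Twist2 (ENSMUSG00000007805, chr1:91801461-91848028, plus strand) was the lowest of the regulators in both groups, at 0.21, 0.12 and 0.12 FPKM in SSCs, from 13, 7 and 7 counts, and 0.60, 0.42 and 1.03 FPKM in iNSCs, from 36, 26 and 66 counts. All iNSC libraries were above all SSC libraries. Twist2 rose (log2 difference 2.43, SE 0.46, edgeR adjusted p = 0.0021) but still made up only 8.70% ± 2.33 (SD, n = 3) of the TWIST pair's FPKM in iNSCs, after 1.84% ± 0.608 in SSCs. On its SSC libraries alone Twist2 would not have passed the count filter, so this p-value is descriptive.

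**Figure D3:**
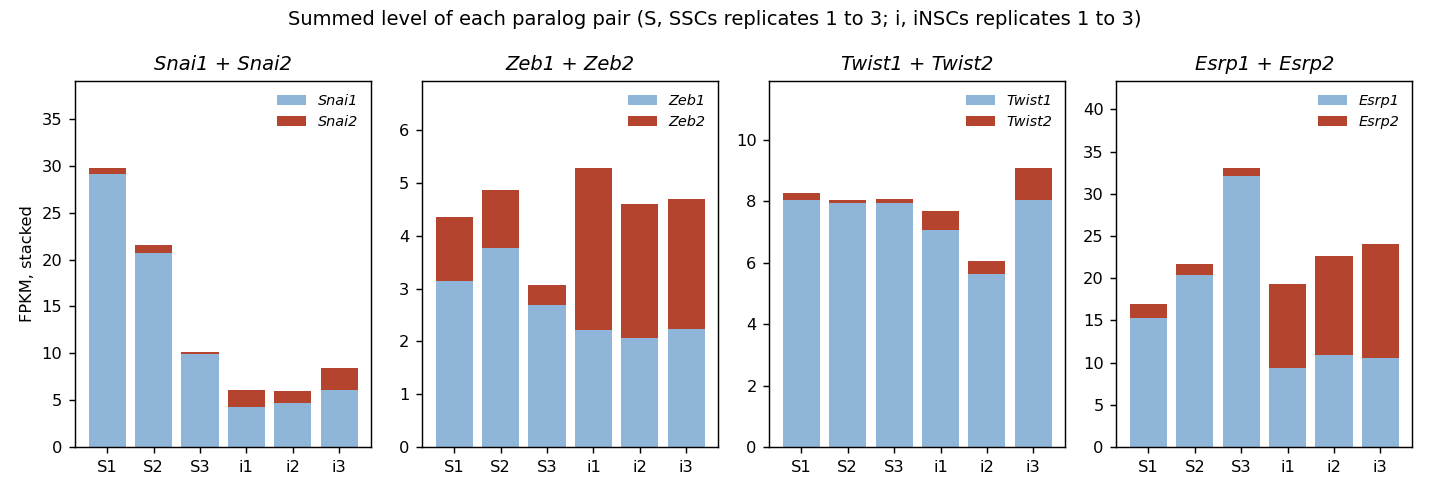
Stacked FPKM of the members of each pair in each library, on linear axes from 0. In FPKM, the summed ESRP and ZEB levels overlap between the groups (the ZEB sum does not per longest coding transcript), the lower-share member of SSCs (Snai2, Zeb2, Twist2, Esrp2) takes a larger share in every iNSC library, and the Snai1 and Snai2 sum is lower in iNSCs.

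Among the epithelial regulators, ESRP1 is the main epithelial splicing factor in most tissues and ESRP2 its partly redundant paralog. Esrp1 (ENSMUSG00000040728, chr4:11331933-11386783, minus strand) was at 15.29, 20.33 and 32.09 FPKM in SSCs and 9.38, 10.86 and 10.59 FPKM in iNSCs. Every SSC library was higher, replicate 3 the most. The difference passed edgeR's test but not the 2-fold size (log2 difference -0.90, SE 0.28, adjusted p = 0.0208), and the result hung on the SSC library left out, since it was -1.13 without SSCs replicate 1 and -0.53 without SSCs replicate 3. Without iNSCs replicate 1, 2 or 3, edgeR's adjusted p for Esrp1 was 0.0796, 0.0574 and 0.0601. Esrp2 (ENSMUSG00000084128, chr8:106130319-106136974, minus strand) was at 1.69, 1.30 and 0.95 FPKM in SSCs and 9.95, 11.82 and 13.41 FPKM in iNSCs. No library of either group came near the other. Esrp2 rose more than any other of the 10 (log2 difference 3.42, SE 0.22, edgeR adjusted p = 1.3e-05). Its span overlaps Nfatc3 and 1810019D21Rik on the opposite strand. Nfatc3 had fewer counts in iNSCs (4362, against 7115 in SSCs) and 1810019D21Rik had 251, against 64.

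The summed FPKM of both ESRP genes was 23.9 ± 8.26 for SSCs and 22.0 ± 2.41 for iNSCs (SD, n = 3). The sums overlapped between the groups, and the shares did not. Esrp2 made up 6.28% ± 3.55 of it in SSCs and 53.2% ± 2.38 in iNSCs. Which of the pair leads in iNSCs depends on the gene length used: per length of the longest coding transcript the share of Esrp2 was 46.1%.

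GRHL2, a grainyhead factor that activates Cdh1 and claudin genes, is encoded by Grhl2 (ENSMUSG00000022286, chr15:37233036-37363569, plus strand). It was at 3.79, 6.11 and 4.94 FPKM in SSCs and 5.11, 4.98 and 5.58 FPKM in iNSCs. The iNSC values lay inside the SSC range, and no change was called (log2 difference 0.33, SE 0.19, edgeR adjusted p = 0.1603). An antisense gene within its span, Gm16136, had 26 counts in SSCs and 303 in iNSCs. Both paralogs fell: Grhl3, a factor of skin and neural tube closure, had a log2 difference of -3.46 and Grhl1 one of -1.69 (edgeR adjusted p = 7.3e-06 and 0.00039).

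OVOL2 is a zinc-finger repressor that keeps epithelial cells from mesenchymal change and is also expressed in the mouse testis. Ovol2 (ENSMUSG00000037279, chr2:144305175-144332146, minus strand) was at 4.45, 4.32 and 9.99 FPKM in SSCs and 0.61, 1.11 and 0.73 FPKM in iNSCs. The groups stood well apart, and SSCs replicate 3 was well above the other SSC libraries. Ovol2 fell by 2.70 on the log2 scale (SE 0.45, edgeR adjusted p = 0.00109). Its paralog Ovol1 went the other way, from 0.59, 0.75 and 0.96 FPKM to 3.33, 2.60 and 3.37 FPKM (log2 difference 2.26, SE 0.27, edgeR adjusted p = 0.00021). Ovol3 was too low to be tested.

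In order of mean FPKM, SSCs held Esrp1 (22.6), Snai1 (19.9), Twist1 (7.97), Ovol2 (6.25), Grhl2 (4.95), Zeb1 (3.20), Esrp2 (1.31), Zeb2 (0.897), Snai2 (0.553) and Twist2 (0.150). Library ranges overlapped between the neighbours Esrp1 and Snai1, Twist1 and Ovol2, Ovol2 and Grhl2, Esrp2 and Zeb2, and Zeb2 and Snai2, so those places in the order are not firm. In iNSCs the order was Esrp2 (11.7), Esrp1 (10.3), Twist1 (6.92), Grhl2 (5.22), Snai1 (5.03), Zeb2 (2.69), Zeb1 (2.17), Snai2 (1.76), Ovol2 (0.817) and Twist2 (0.683). There the overlapping neighbours were both ESRP genes, Grhl2 and Snai1, Zeb1 and Snai2, and Ovol2 and Twist2. These levels are per exonic length, and the mesenchymal drivers were in both groups interleaved with the epithelial keepers.

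The SSC libraries differed among themselves in the regulators as well as in the marker sums. Snai1, Snai2, Zeb1, Zeb2 and Esrp2 were lowest in SSCs replicate 3, the library poorest in fibroblast and myoid transcripts, and Esrp1 and Ovol2 were highest there, while its germ cell sum, 912.1 FPKM, was the highest of the group. With that library alone as the SSC group, Esrp2, Zeb2 and Snai2 differed by 3.84, 2.98 and 3.25 on the log2 scale. Snai1, Zeb2, Twist1, Twist2 and Esrp2 were highest in SSCs replicate 1, the library with the highest fibroblast, myoid and Sertoli sums. Snai2, Zeb1 and Grhl2 were highest in SSCs replicate 2. The part of feeder or other somatic cells in the SSC levels was not tested. In iNSCs the fibroblast list was mixed: Col6a1, Dcn, Lum, Pdgfra and Thy1 rose, Postn and Mfap5 fell, and 5 of the 12 were not called. Beside this and the marker counts that follow, 25.7% of all genes tested were called higher and 27.6% lower in iNSCs. Of 6 smooth muscle and myoid markers, 0 were called by edgeR and 0 by DESeq2, and 0 had an unadjusted p under 0.05 in edgeR. Their sums in SSCs, 701.0, 597.2 and 40.17 FPKM, lay on both sides of those in iNSCs (343.9 to 393.6 FPKM). With that spread the lack of calls does not show equal levels. Of 8 Sertoli cell markers tested, 7 rose, led by Cst12, Sox9 and Dhh, and Rhox8 was not called. The sum over all 10 listed was 346.6, 61.3 and 116.8 FPKM in SSCs replicates 1, 2 and 3 and 717.4 to 908.3 FPKM in iNSCs. Most of it was Clu alone, at 44.18 to 279.73 FPKM in SSCs and 546.84 to 750.45 FPKM in iNSCs. Of those too low to be tested, Amh had a lower mean in iNSCs (0.123 FPKM, against 0.573 in SSCs). Fshr was at 0 in all SSC libraries and at most 0.04 FPKM in iNSCs. Csf1r rose among 5 macrophage markers tested. C1qa, too low to be tested, was at 0 in iNSCs and at most 0.25 FPKM in SSCs. Of 6 endothelial markers 5 fell (Pecam1, Tek, Vwf, Tie1 and Kdr). In SSCs the mean of Pecam1 was 2.22 FPKM and those of Tek, Vwf, Tie1 and Kdr were 0.16 to 0.643 FPKM. The groups overlapped for Kdr. How far these cell types bear on the levels of the regulators in iNSCs was not tested.

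**Figure D4:**
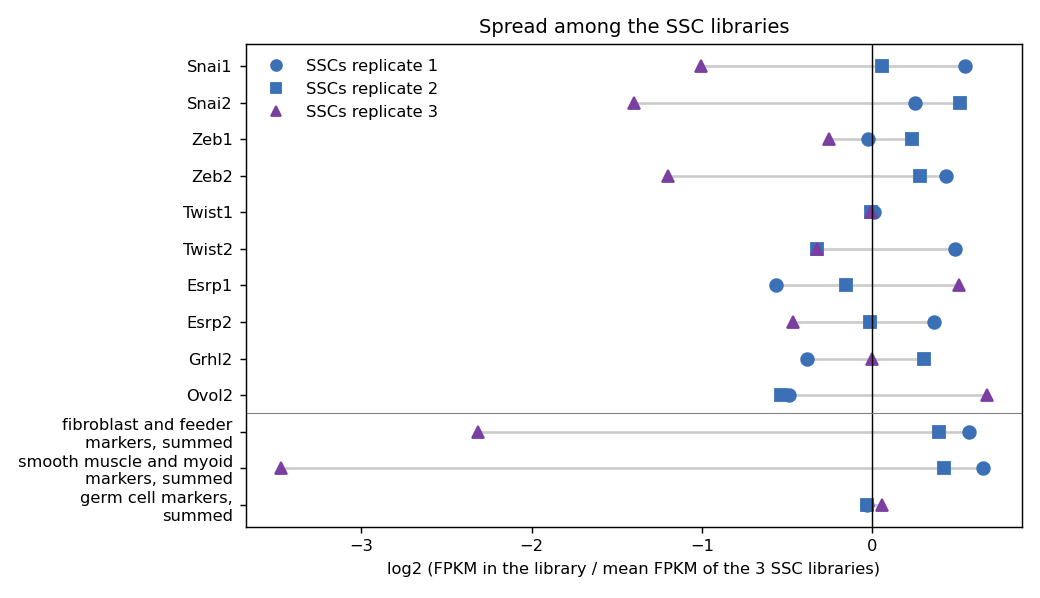
Each regulator and 3 marker sums in each SSC library, as log2 of the library's FPKM over the mean of the 3 SSC libraries. SSCs replicate 3 (triangles) lies lowest for Snai1, Snai2, Zeb1, Zeb2, Esrp2 and both somatic marker sums drawn. It lies highest for Esrp1 and Ovol2, and close to the others for the germ cell sum. The Sertoli sum, highest in SSCs replicate 1, is not drawn.

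Genes that the switch acts on were described from lists drawn up with earlier results of these data known. Of 26 epithelial effector genes, 22 rose and the other 4 (Epcam, Ocln, Marveld2 and Spint1) were not called, with a median log2 difference of 3.799 against -0.05 for all genes. The share that rose, 22 of 26, stands beside 25.7% of all genes. Cdh1, E-cadherin, was at 5.44, 8.10 and 9.20 FPKM in SSCs and 84.03, 97.12 and 103.36 FPKM in iNSCs. Every iNSC library was far above every SSC library (log2 difference 3.89, SE 0.25, edgeR adjusted p = 1.2e-05). Among the largest rises were those of the simple-epithelium keratin Krt8 (log2 difference 8.03) and the tight-junction gene Cldn6 (7.59). Epcam, the epithelial adhesion molecule, is also a known marker of SSCs, and its levels, 126.93, 127.43 and 205.73 FPKM in SSCs and 91.67, 104.66 and 109.78 FPKM in iNSCs, were high in both groups (log2 difference -0.35, SE 0.23, edgeR adjusted p = 0.2019).

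Of 25 mesenchymal effector genes, 9 rose and 3 fell, with a median log2 difference of 0.08, beside 25.7% higher and 27.6% lower of all genes. Vim, the mesenchymal intermediate filament, was at 132.2, 85.26 and 47.06 FPKM in SSCs and 424.07, 397.52 and 369.47 FPKM in iNSCs, with no overlap (log2 difference 2.44, SE 0.32, edgeR adjusted p = 0.00035). N-cadherin (Cdh2), cadherin 11 (Cdh11) and fibronectin (Fn1) also rose, with log2 differences of 2.34, 2.41 and 1.78. Postn, Lox and Itgb3, genes of the matrix and its receptors, fell, with log2 differences of -4.36, -2.09 and -1.59. SSCs replicate 3 lay near the iNSC libraries for Postn (0.49 FPKM, against 0.25 to 0.37) and Lox (17.2 FPKM, against 13.91 to 17.07). On TMM-scaled counts the groups overlapped for Lox. For Itgb3 that library stood apart (3.24 FPKM, against 1.01 to 1.09). The iNSC libraries thus carried higher Cdh1 and higher Cdh2 at once, which in bulk RNA does not say whether the same cells held both. This list followed the uneven SSC libraries: without SSCs replicate 3 the number that fell was 8, and with that library as the lone SSC library 19 rose and 1 fell.

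**Figure D5:**
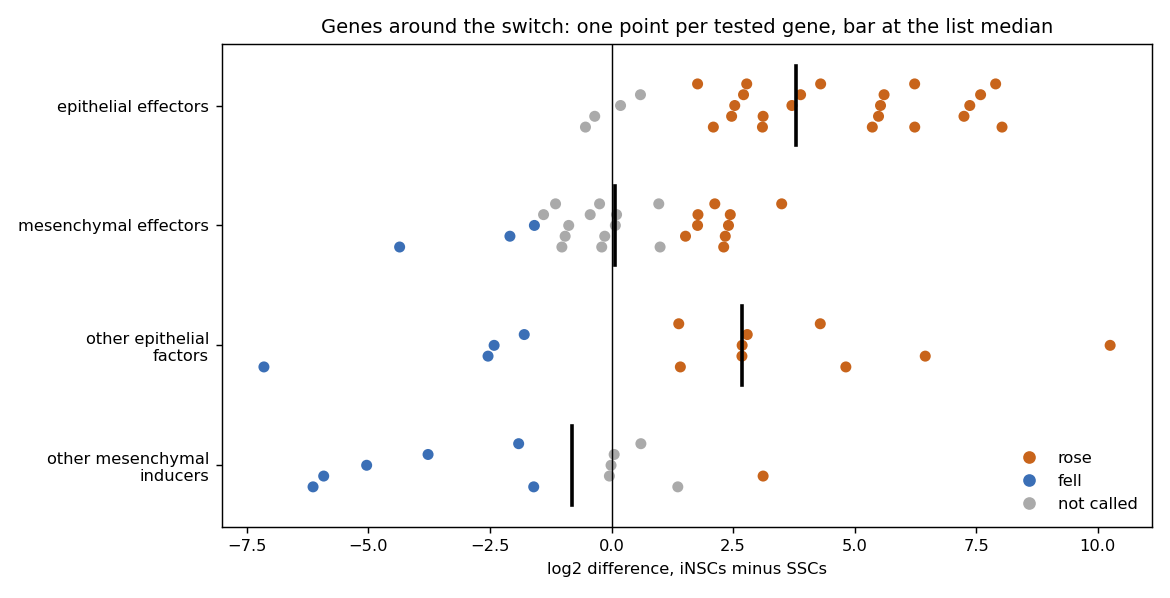
log2 differences, iNSCs minus SSCs, of the genes in each list around the regulators (a point per gene tested, coloured by its call), with the median of each list as a bar. Epithelial effectors lie almost all above 0 around a median of 3.799, and mesenchymal effectors spread to both sides around 0.08.

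Of 12 other factors able to start a mesenchymal transition, 6 fell, 1 rose and 5 were not called, with a median log2 difference of -0.82, beside 27.6% lower and 25.7% higher of all genes. The forkhead gene Foxc2 and the zinc-finger gene Klf8 fell, with log2 differences of -5.92 and -5.04. Gsc, the homeobox gene of the gastrula organizer, also fell, from 0.90, 0.74 and 2.86 FPKM in SSCs to 0.04 FPKM, a single count, in iNSCs replicate 1 and 0 in the other iNSC libraries. Hmga2, a chromatin protein known to activate Snai1 and Twist1, rose (log2 difference 3.12, SE 0.22, edgeR adjusted p = 1.9e-05).

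Of 13 other epithelial transcription and splicing factors tested, 9 rose and 4 fell, beside 25.7% higher and 27.6% lower of all genes. Ehf, an epithelial ETS factor, was at 0, 0.05 and 0.02 FPKM in SSCs and 21.85, 24.48 and 26.39 FPKM in iNSCs. Elf3, another epithelial ETS factor, rose by 4.82 on the log2 scale. Klf4, Foxa2, Tfap2c and Trp63 fell, with log2 differences of -2.54, -2.41, -7.15 and -1.79. Trp63 was very low in both groups, at 0.11 to 0.20 FPKM in SSCs and 0.02 to 0.06 FPKM in iNSCs. Tfap2c and Klf4 are also known from germ and pluripotent cells.

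Of 12 corepressors and chromatin partners of the repressors, 3 rose, 1 fell (3 by library totals) and 8 were not called. Of all genes tested, 25.7% were called higher and 27.6% lower. The groups did not overlap for 11, beside 79.3% of all genes tested. An unadjusted p under 0.05 in edgeR was found for 4 that were higher and 6 that were lower, without a share of all genes beside it. Ajuba, which links SNAIL to its partners, rose by 2.23, the REST corepressor Rcor1 by 1.61 and Ctbp2, which binds ZEB proteins, by 1.37 on the log2 scale, and Sin3a fell (log2 difference -1.99). Of 12 genes that regulate the stability of these proteins, only Pak1, a kinase that phosphorylates SNAIL, was called (log2 difference -1.09). Of all genes tested, 53.3% were called. At an unadjusted p under 0.05 in edgeR, 3 of the 12 were higher and 6 lower, again without a share of all genes. Gsk3b and Btrc, which mark SNAIL for destruction, were not called. Btrc was lower in iNSCs but under 2-fold (log2 difference -0.48, edgeR adjusted p = 0.00555). Protein levels were not measured.

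Transcripts that ESRP proteins splice were read at the gene level, so exon use is not known from these values. Of 12 such genes, 6 rose and 1 fell, beside 25.7% higher and 27.6% lower of all genes, and the median log2 difference was 0.76. Cd44 rose by 3.37, the growth factor receptor gene Fgfr2 by 3.10 and the transcription factor gene Nfib by 2.81 on the log2 scale. Scrib, a polarity gene, fell by 1.38.

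TGF-beta is the best known outside signal that induces Snai1, Zeb1 and Twist1, and iNSC medium held a blocker of its receptors. Of 14 genes of this signal tested, 4 rose and 2 fell, beside 25.7% higher and 27.6% lower of all genes. Tgfbr2, the type II receptor, was at 4.72, 4.23 and 4.30 FPKM in SSCs and 66.06, 70.66 and 76.13 FPKM in iNSCs (log2 difference 4.26, SE 0.12, edgeR adjusted p = 8.7e-07). The ligand gene Tgfb2 rose by 3.62, the signal carrier Smad3 by 1.92 and the coreceptor Tgfbr3 by 1.27. Ski, which holds SMAD proteins in check, fell by 1.54, and the related Skil also fell. Tgfbr1, a receptor that SB431542 blocks, and Smad7, a feedback inhibitor, passed edgeR's test but not the 2-fold size. Tgfbr1 had a log2 difference of 0.44 (edgeR adjusted p = 0.00737) and Smad7 one of -0.77 (edgeR adjusted p = 0.00158). The groups did not overlap for either gene.

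Promoters of the epithelial effectors were searched for the E-box CAGGTG on both strands, from 250 bases before to 50 after the RefSeq start (GRCm38.p6). It was present in 20 of 24 windows of the 19 effectors matched (83.3%), which do not include Cdh1. Of 32851 windows of all genes, 20.2% held it. Several of the effectors are in the list because they are known targets of E-box repressors, so their share is a description of the list. Among 8 windows of the 5 regulators matched (Snai1, Zeb2, Twist1, Twist2 and Ovol2), only that of Snai1 held it. The TWIST E-box CATATG was in none of the 24 effector windows and in 3.91% of all windows, the grainyhead letters AACCGGTT in none and in 0.146%, and the OVO letters CCGTTA in 2 and in 2.76%. These 2 windows overlap in Crb3 and hold the same CCGTTA site. Windows of Crb3, Ocln and Marveld2 overlap and share E-boxes too, so windows are not separate promoters. Absence says only that these letters are not in the windows. The 250 bases before the start are shown for Crb3, an apical polarity gene that rose (log2 difference 3.10, edgeR adjusted p = 1.1e-05), and for Epcam, which was not called, with the E-boxes in capitals, because both carry more than 1 box and only Crb3 was called (plus strand, chr17:57061951-57062200 and chr17:87635729-87635978).
Crb3 promoter: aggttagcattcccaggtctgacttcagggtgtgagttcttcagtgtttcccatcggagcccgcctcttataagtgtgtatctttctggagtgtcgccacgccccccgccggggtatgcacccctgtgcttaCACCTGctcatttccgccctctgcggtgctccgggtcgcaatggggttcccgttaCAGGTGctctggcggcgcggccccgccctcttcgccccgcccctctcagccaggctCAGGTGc
Epcam promoter: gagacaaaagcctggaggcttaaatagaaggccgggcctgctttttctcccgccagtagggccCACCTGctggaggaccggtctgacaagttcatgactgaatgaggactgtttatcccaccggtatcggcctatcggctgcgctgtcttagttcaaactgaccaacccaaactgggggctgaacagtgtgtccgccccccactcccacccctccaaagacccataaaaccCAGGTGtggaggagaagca

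Over the 6 libraries, which share their depth and fall into 2 groups, the pair of members closest in pattern was Zeb2 and Snai2 (Pearson r of log2(CPM + 1) 0.947), followed by Snai2 and Twist2 (0.935), and Zeb2 and Ovol2 ran opposite (-0.990). The epithelial keeper Esrp2 was nearly as close to these drivers, at 0.928 with Zeb2, 0.927 with Twist2 and 0.925 with Snai2. Outside the 10, the tested genes most like Zeb2 were Eda2r, Slc38a10 and Cavin2, those most like Esrp2 included Sema6a and Lman2, and those most like Ovol2 were Prune1, Ggnbp2 and Prss50. For Snai1 they were Camk2n1, Pth1r and Ino80e, for Snai2 Cyren, Mta3 and Skap1, and for Twist2 Aqp1, Cryl1 and Lrrc75a, and those for Esrp1 included Fnbp1l and Rbm19. For Zeb1 they were Znfx1, Stab2 and Ermard, for Grhl2 Mapkap1, Tarbp1 and Abca7, and for Twist1 Rcc1l, Dlk1 and Ormdl2. The closest match ranged from 0.939 for Twist1 to 0.9997 for Zeb2. The measure reads the shape and not the size of a pattern: the log2 difference was 1.78 for Eda2r and 0.29 for Slc38a10, beside 1.85 for Zeb2.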

How the data were processed

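Stranded libraries of polyadenylated RNA were sequenced from 3 SSC and 3 iNSC samples, grouped by sample title. The authors deposited 1 table of read counts and FPKM values per gene. HISAT2, DESeq2 and the build mm9 are named in the submitters' processing notes, but the table's gene coordinates equal those of GENCODE M21 (GRCm38) for 54821 of 55401 genes, so GRCm38 coordinates are printed. Neither the program that counted reads nor its strand setting is recorded in the labels or the table. The deposited FPKM equalled the count divided by exonic length and column total, within 0.0051, so a gene with a long union of exons has a lower FPKM.

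From the deposited counts, edgeR 4.0.16 (R 4.3.3) fitted the quasi-likelihood test to all 6 libraries with TMM scaling and filterByExpr (count minimum 10, total 15), leaving 17387 genes, with Benjamini-Hochberg adjustment over all of them. On simulated counts for this comparison, with 200 of those 17387 genes changed, 89% of 100 genes changed by 1.5 and 95% of 100 changed by 2 on the log2 scale were called, with 12 false calls. The changed genes were drawn above a floor on mean counts that Snai2 and Twist2 do not reach. Each gene was given the same spread in both groups, whereas the real SSC libraries were the more uneven. The simulated shares therefore do not describe such low genes or that unevenness. DESeq2 1.42.0, limma 3.58.1 on log2(FPKM + 1) and log2(FPKM + 0.1), other scalings and filters, a replicate block and leaving out libraries were alternatives. SSCs replicate 3 alone and the length of the longest coding transcript were chosen after seeing the data.

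The members and all gene lists were chosen with earlier results of these data known. Named genes are all members, up to 3 called genes in each direction per list with the largest change at a mean of at least 1 FPKM, all called genes where a list had 5 or fewer in a direction, Cdh1, Epcam, Vim, Cdh2 and Fn1, and the 3 genes most like each member. Genes beyond this rule (Crb3, Ocln, Marveld2, Spint1, Gsk3b, Btrc, Tgfbr1 and Smad7) were picked after their values were seen. In the list on protein stability, 13 of 14 symbols were in the table and 12 were tested. Some genes that the rule names are not reported here.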

Additional observations from a re-analysis of the deposited data

How the results depend on the processing

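Across 15 alternatives, no called regulator changed direction. Esrp2 rose in all of them (log2 difference 2.46 to 3.84), and Ovol2 fell in all of them (-3.39 to -1.92). On log2(FPKM + 1), which compresses low genes, 1 regulator was called higher (Esrp2), with Snai2 at 0.83, Zeb2 at 0.98 and Twist2 at 0.53, and 2738 of all genes were called higher. Twist2 was not tested under the filter of 1 FPKM in 3 libraries. Snai1 was -0.77 against SSCs replicate 3 alone (edgeR adjusted p = 0.00522, range over its alternatives 1.14e-05 to 0.019). Esrp1 passed 2-fold by library totals (-1.14), with limma on log2(FPKM + 0.1) (-1.06) and on log2(FPKM + 1) (-1.003), without SSCs replicate 1 (-1.13) and against SSCs replicate 3 alone (-1.43). Its adjusted p in edgeR ranged up to 0.0796 when an iNSC library was left out.

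Mesenchymal effectors that fell numbered 5 by DESeq2, 5 by library totals and 2 to 8 when a library was left out, and against SSCs replicate 3 alone 19 rose and 1 fell. The 22 epithelial effectors called higher remained 22 in number under every alternative. Shares within pairs moved when counts were not divided by length: Snai2 to 30.1% in iNSCs, Zeb2 to 34.0% in SSCs and 70.8% in iNSCs, Twist2 to 3.53% and 15.7%, and Esrp2 to 43.9% in iNSCs. Per longest coding transcript, Zeb2 was 60.6% and Esrp2 46.1% in iNSCs.

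With the replicate number as a block, 4 regulators were higher and 2 lower, as without it, and 4510 and 4661 of all genes were called. Same-numbered deviations correlated at 0.0907, 0.0496 and -0.015, and differently numbered ones at -0.0959 to 0.0535. With 3 libraries in each group, these values cannot settle whether the numbers pair the libraries. The low counts of Twist2 and Snai2 limit their precision.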
